A study of Homo sapiens with 19 samples.

Results

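The proteasome genes examined here are the 50 gene names beginning with PSMA to PSMG and a digit, without PSMB8 and PSMB9, among 25365 gene names used in the OCI-LY10 table, 25268 in the TMD8 table and 25266 in the SUDHL2 table. They were followed through RNA sequencing of 3 human cell lines of diffuse large B-cell lymphoma, an aggressive B-cell cancer, of its activated B-cell-like (ABC) subtype. Each line carried 1 of 3 short hairpin RNAs, named shEGR1#8, shEGR1#9 and the control hairpin sc4 in the labels, and every group, the controls included, received 20 ng/ml doxycycline for 2 days to switch the hairpin on. OCI-LY10 had 3 libraries for shEGR1#8, 3 for shEGR1#9 and 3 for control, and TMD8 and SUDHL2 had 1 library for each hairpin. The 2 EGR1 hairpins were directed at EGR1, a zinc-finger transcription factor of the immediate early response, and the question was which genes depend on it in these lines.

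The proteasome is the protease that degrades proteins tagged with ubiquitin. Its 20S core is a barrel of alpha and beta rings, in which PSMB5, PSMB6 and PSMB7 hold the catalytic sites, and the 19S cap recognises, unfolds and feeds the substrate through a ring of ATPases, PSMC1 to PSMC6. Other caps (PSME1 to PSME4) open the core in its place, PSMF1 restrains it, and the chaperones PSMG1 to PSMG4 help to build it. Under interferon, cells make the immunoproteasome, in which PSMB8, PSMB9 and PSMB10 replace the constitutive catalytic subunits. B-cell lymphomas of this subtype signal through NF-kB, whose inhibitor is removed by the proteasome.

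By role the 50 names held 7 alpha subunits, 3 constitutive catalytic beta subunits, 4 other beta subunits, 3 inducible or tissue-specific core subunits (PSMB10, PSMB11 and PSMA8), 6 ATPases and 14 non-ATPase names of the 19S cap. The rest were 4 activators, 1 inhibitor, 4 chaperones and 4 names that match by spelling alone. Those 4 were PSMC3IP, a factor of meiotic recombination, and the antisense or divergent transcripts PSMD5-AS1, PSMD6-AS2 and PSMG3-AS1. Reads of an antisense transcript and of its partner cannot be told apart here, since no source used here says whether counting used the strand.

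The values were read as FPKM, fragments scaled by transcript length and library size. The tables hold no read counts, so the depth behind a value is unknown. The labels do not say that the 3 libraries of an OCI-LY10 group came from separate cultures, so a p-value covers no more than the spread from library to library, which may be technical. The B-cell markers MS4A1, CD79A, CD79B, PAX5 and CD22 were at 1 FPKM or more in all 3 lines, and none of 6 T and NK cell markers was. The targeted gene did not follow the labels in OCI-LY10 and TMD8. In SUDHL2 it was lower with shEGR1#8 and shEGR1#9 by log2 −0.30 and −0.14, with 1 library each. In OCI-LY10, EGR1 had 10.0, 11.4 and 20.5 FPKM in the libraries labelled shEGR1#8 and 10.8, 11.8 and 22.7 FPKM in those labelled shEGR1#9, against 8.57, 9.59 and 12.3 FPKM in control, a difference that did not pass (log2 0.42, SE 0.267, limma adjusted p = 0.349). TMD8 had 10.8 and 9.95 FPKM of EGR1 in the libraries labelled shEGR1#8 and shEGR1#9, against 7.31 FPKM in control, and SUDHL2 had 13.7 and 15.4 FPKM against 17.0 FPKM in control. In each direction below, a hairpin's name therefore stands for the library's label and not for an established loss of EGR1 RNA.

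Promoters give the members their place in the genome and the letters that known factors read. Of the 50 names, 43 matched a RefSeq promoter table of build GRCh38.p14 that covers 250 bases before to 50 bases after a start. A single start was searched per gene name, so a motif at any other start would be missed. The consensus of EGR1 itself, GCGNGGGCG on either strand, was present in 5 of the 43 (11.6%), against 9.28% of 27305 promoters. The 5 were PSMA8, PSMC3, PSMC4, PSMD14 and PSMG1. The 250 bases before the start are shown for PSMG1 and PSMC4, because both hold the consensus and the hairpin and control libraries of OCI-LY10 did not overlap for either gene. The 2 went opposite ways and neither passed. PSMG1 lay below control (log2 −0.24, limma adjusted p = 0.0734), as 8.22% of all genes did. PSMC4 lay above (log2 0.16, limma adjusted p = 0.131), as 12.9% did. For PSMC3 and PSMD14 the libraries overlapped (log2 0.01 each), and PSMA8 was not tested. Capitals mark the consensus, which begins 178 and 98 bases before the start of PSMG1 (chr21:39183452-39183701, minus strand) and 172 bases before that of PSMC4 (chr19:39970915-39971164, plus strand). In PSMG1 the capitals overlap a match to the core of the antioxidant response element, TGACNNNGC.
PSMG1: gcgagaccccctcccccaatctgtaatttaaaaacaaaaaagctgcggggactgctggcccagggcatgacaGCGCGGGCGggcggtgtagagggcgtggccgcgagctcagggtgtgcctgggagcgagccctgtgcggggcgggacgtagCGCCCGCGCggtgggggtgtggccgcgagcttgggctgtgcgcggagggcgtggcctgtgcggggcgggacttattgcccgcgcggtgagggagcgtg
PSMC4: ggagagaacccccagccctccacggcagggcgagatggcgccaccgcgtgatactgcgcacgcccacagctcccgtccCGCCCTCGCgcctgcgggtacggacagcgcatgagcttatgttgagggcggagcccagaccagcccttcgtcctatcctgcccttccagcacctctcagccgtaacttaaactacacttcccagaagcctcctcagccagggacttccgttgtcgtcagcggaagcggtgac

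The core of the interferon-stimulated response element, GAAA, any 2 bases and GAAA again on either strand, was present in 6 of the 43 promoters (14%), against 3.65% of all promoters. The 6 were PSMA4, PSMB4, PSMB10, PSME1, PSME2 and PSMG4. The 250 bases before the start are shown for PSMB10 and PSME2, which are known to be induced by interferon, with the core in capitals 21 bases before the start of PSMB10 (chr16:67936851-67937100, minus strand) and 28 bases before that of PSME2 (chr14:24146611-24146860, minus strand).
PSMB10: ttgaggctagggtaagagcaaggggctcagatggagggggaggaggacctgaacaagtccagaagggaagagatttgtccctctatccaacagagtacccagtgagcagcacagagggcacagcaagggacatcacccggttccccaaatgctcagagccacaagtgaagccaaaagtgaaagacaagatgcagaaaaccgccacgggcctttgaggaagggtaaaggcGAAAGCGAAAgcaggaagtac
PSME2: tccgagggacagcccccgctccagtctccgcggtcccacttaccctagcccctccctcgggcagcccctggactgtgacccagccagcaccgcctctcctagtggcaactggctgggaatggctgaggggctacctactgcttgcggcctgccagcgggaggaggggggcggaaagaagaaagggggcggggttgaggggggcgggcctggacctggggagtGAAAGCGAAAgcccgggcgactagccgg

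The element TGACNNNGC, read by the NRF factors that raise proteasome genes under stress, was present in 12 of the 43 (27.9%), against 13.6% of all promoters. A CCAAT box, CCAAT on either strand, was present in 19 (44.2%), against 35.7%. Apart from PSMG1, no member had matches to these 4 motifs that overlapped each other. These are matches of letters only, and binding was not measured in the files used here.

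In OCI-LY10 control cells the 14 constitutive core subunits, which stand in equal number in the particle, ran in FPKM from 25.0 for PSMB2 to 296 for PSMB4, an 11.8-fold range. PSMB2 was the lowest of the 14 in the controls of all 3 lines, at 25.0 FPKM in TMD8 and 20.9 FPKM in SUDHL2, and PSMA5 was the lowest of the alpha subunits in all 3. The order among alpha subunits in OCI-LY10 control was PSMA5 (55.1 ± 2.65 FPKM), PSMA2 (90.7 ± 6.46), PSMA1 (121 ± 7.62), PSMA6 (150 ± 11.9), PSMA3 (176 ± 8.3), PSMA4 (200 ± 11.0) and PSMA7 (272 ± 9.58, SD, n = 3 each). Neighbours in that order were apart by more than the larger of their SDs. The ATPases spanned less, from 51.7 FPKM for PSMC2 to 200 FPKM for PSMC5. Chaperones were lower, from 7.06 FPKM for PSMG4 to 81.4 FPKM for PSMG1. Among activators PSME2, a subunit of the interferon-induced PA28 cap, had 317 FPKM and PSME4, the single-chain cap PA200, had 32.6 FPKM.

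**Figure D1:**
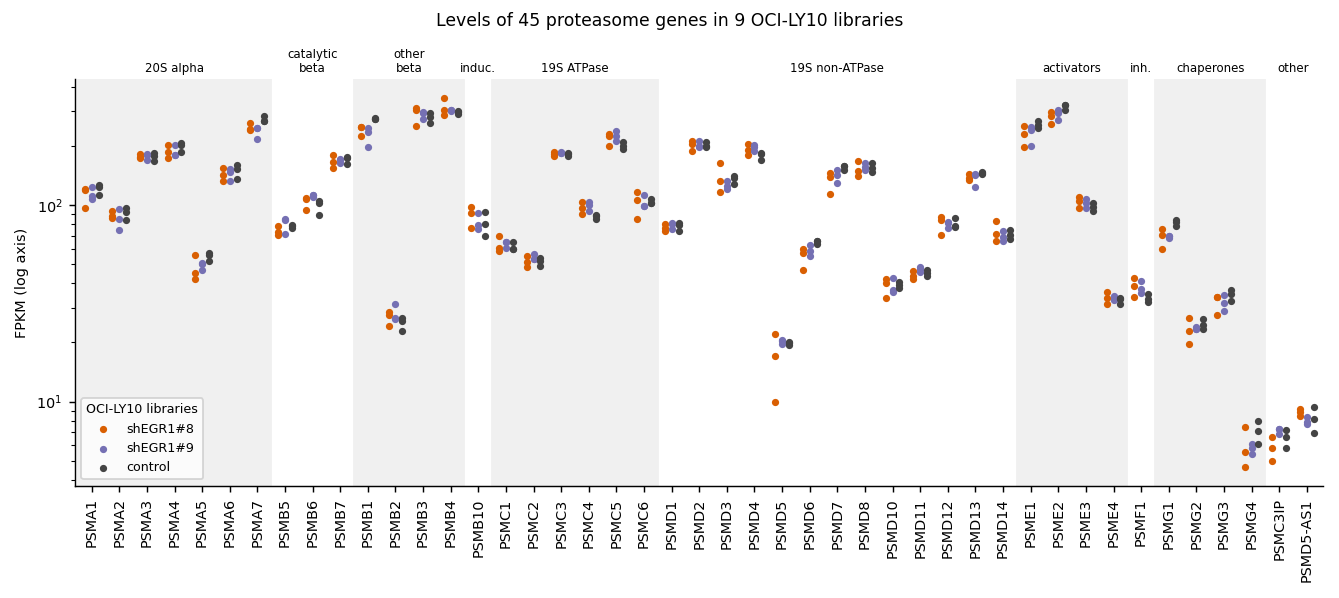
Each point is the FPKM (log axis) of 1 gene in 1 of the 9 OCI-LY10 libraries, coloured by hairpin and grouped by role. The spread between genes, from PSMG4 at 4.64 to 8.01 FPKM to PSMB4 at 287 to 352 FPKM, is far wider than that between libraries of 1 gene, with PSMD5 in 1 shEGR1#8 library the point that stands lowest from its group.

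Of the 50 names, 45 were expressed enough in OCI-LY10 to be tested (1 FPKM or more in 3 or more libraries). PSMA8, the alpha subunit of the testis, was listed at 0 in all 9 libraries, and PSMB11, the beta subunit of the thymus, in 8 of 9. The transcripts PSMD6-AS2 and PSMG3-AS1 stayed under 1 FPKM, at 0.184 to 0.416 and 0.0633 to 0.258 FPKM. PSMD9, a chaperone of the 19S base, was listed at 0 in all 9 OCI-LY10 libraries although it had 16.6, 18.0 and 22.8 FPKM in the shEGR1#8, shEGR1#9 and control libraries of TMD8. Such a 0 can be a failed estimate. The immunoproteasome genes PSMB8 and PSMB9, which are no members, had at most 4.96 and 2.61 FPKM in OCI-LY10 and were listed at 0 in every TMD8 and SUDHL2 library; they lie in the MHC region, whose several copies in the reference can split reads, and their values are uncertain.

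In OCI-LY10 no proteasome gene passed the test between the EGR1 hairpins and control. Across 10612 genes, 8.56% were called in the joint comparison of both hairpins with control, 5.33% for shEGR1#8 and 5.09% for shEGR1#9 (limma on log2(FPKM + 1), Benjamini-Hochberg adjusted p under 0.05), and of the 45 members 0 were called in each of the 3. At an unadjusted p under 0.05 the joint comparison gave 9 of 45 members, 7 of them lower, against 26.1% of all genes in either direction and 9.28% lower. At that level shEGR1#8 gave 5 members, where 23.7% of all genes passed, and shEGR1#9 gave 4, where 20% did. Between shEGR1#9 and shEGR1#8 limma called 0 members and 0% of all genes, with 1 member, PSMC3IP, and 2.52% of all genes at an unadjusted p under 0.05. PSMC3IP stood at 7.14 ± 0.261 FPKM with shEGR1#9 and 5.78 ± 0.819 FPKM with shEGR1#8. The members' log2 differences ran from −0.25 to 0.18, with a median of −0.02 against 0.03 over all genes, and 27 of 45 were below 0 against 44.2% of all genes. In bulk RNA such as this, fewer cells of a kind and less RNA per cell cannot be told apart. For 43 of the 45 the 95% interval lay within 0.5 log2 units of 0, and the widest, for PSMD5, reached −0.57.

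**Figure D2:**
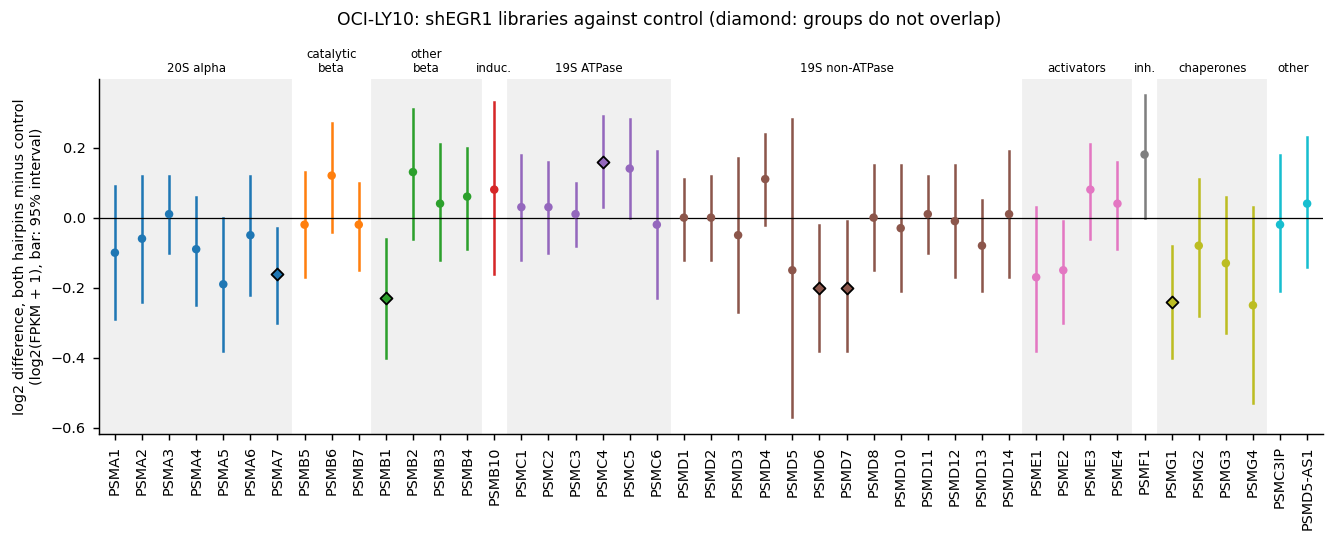
Points are log2 differences of log2(FPKM + 1), both hairpins minus control, with 95% intervals from limma for 45 genes in OCI-LY10, coloured by role. Diamonds are the 6 genes whose 6 hairpin libraries all lay on one side of the 3 controls. Of the 45 genes 1 lay above and 5 below, where 12.9% and 8.22% of all genes did. All 4 chaperones and 6 of the 7 alpha subunits lie below 0, and 5 of the 6 ATPases above, where 44.2% of all genes were below 0.

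The 7 alpha subunits, which form the gate of the core, had a median log2 difference of −0.09 (range −0.19 to 0.01), and 0 of 7 passed. PSMA7 had 241, 245 and 262 FPKM with shEGR1#8 and 248, 248 and 218 FPKM with shEGR1#9, against 267, 284 and 267 FPKM in control (log2 −0.16, SE 0.0587, limma adjusted p = 0.124). All 6 hairpin libraries lay below all 3 controls. PSMA5 had 55.4, 41.9 and 45.2 FPKM with shEGR1#8 and 47.0, 50.7 and 50.0 FPKM with shEGR1#9, against 52.2, 57.3 and 55.8 FPKM in control (log2 −0.19, limma adjusted p = 0.192). Its groups overlapped through shEGR1#8 replicate 1, and without that library it passed (log2 −0.25, limma adjusted p = 0.0307). Calls over all genes then came to 1069, against 908 in the main setting.

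None of the 3 catalytic subunits passed. PSMB5, the chymotrypsin-like subunit and main target of bortezomib, averaged 73.7 ± 4.07 FPKM with shEGR1#8 and 80.2 ± 7.44 FPKM with shEGR1#9, against 77.8 ± 0.987 FPKM in control (SD, n = 3 each). PSMB6, the caspase-like subunit, averaged 104 ± 7.99 and 112 ± 1.63 FPKM against 99.2 ± 8.49 FPKM in control, the highest difference of the 3 (log2 0.12, limma adjusted p = 0.312). PSMB7, the trypsin-like subunit, averaged 166 ± 11.8 and 168 ± 3.96 FPKM against 170 ± 7.37 FPKM in control. PSMB10, which replaces PSMB7 in the immunoproteasome, averaged 88.3 ± 10.7 and 82.2 ± 8.34 FPKM against 80.7 ± 11.4 FPKM in control (log2 0.08, limma adjusted p = 0.661).

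Of the 4 other beta subunits, PSMB1 was the one that stood apart from control. It had 224, 250 and 249 FPKM with shEGR1#8 and 247, 236 and 197 FPKM with shEGR1#9, against 276, 273 and 274 FPKM in control (log2 −0.23, SE 0.0745, limma adjusted p = 0.0914). Every hairpin library was below every control, while the controls were within 3 FPKM of each other. With array weights PSMB1 passed (limma adjusted p = 0.0477), in a setting that raised calls over all genes from 908 to 1914. PSMB2, PSMB3 and PSMB4 had log2 differences of 0.13, 0.04 and 0.06. PSMB4 was the most abundant core subunit, at 287 to 352 FPKM over the 9 libraries.

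In the 19S cap, PSMC4 was the 1 member of 45 whose 6 hairpin libraries all lay above control, where 12.9% of all genes did, and 5 members (PSMA7, PSMB1, PSMD6, PSMD7 and PSMG1) lay below, where 8.22% did. PSMC4, an ATPase, had 96.4, 90.2 and 104 FPKM with shEGR1#8 and 93.0, 99.6 and 104 FPKM with shEGR1#9, against 88.1, 85.4 and 89.0 FPKM in control (log2 0.16, SE 0.0584, limma adjusted p = 0.131). The 6 ATPases had a median of 0.03, and PSMC5, the most abundant, averaged 218 ± 16.3 and 224 ± 12.5 FPKM against 200 ± 8.74 FPKM in control. PSMC3 was the steadiest member, with a within-group SD of 0.0255 log2 units against a median of 0.106 over the 45 members and 0.114 over all genes.

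Of the 13 tested non-ATPase members 10 were below 0, where 44.2% of all genes were, with a median of −0.01. Among the 10, PSMD1, PSMD2 and PSMD8 had log2 differences of −0.00. PSMD6, of the lid, had 59.9, 57.3 and 47.0 FPKM with shEGR1#8 and 63.0, 58.6 and 55.1 FPKM with shEGR1#9, against 66.0, 66.0 and 63.2 FPKM in control (log2 −0.20, limma adjusted p = 0.159). PSMD7, the lid partner of the deubiquitinase PSMD14, had 139, 145 and 114 FPKM with shEGR1#8 and 150, 143 and 130 FPKM with shEGR1#9, against 151, 158 and 159 FPKM in control (log2 −0.20, limma adjusted p = 0.168). In both genes shEGR1#8 replicate 3 was the lowest library. PSMD14 itself averaged 73.3 ± 9.19 and 69.2 ± 4.09 FPKM against 70.7 ± 3.82 FPKM in control. PSMD2, a scaffold of the base and the most abundant of the group, averaged 201 ± 11.7 and 203 ± 7.68 FPKM against 202 ± 6.37 FPKM in control. PSMD5, a chaperone of the base, had the largest within-group SD of the members, 0.315 log2 units, from 1 library. It had 22.1, 10.0 and 17.0 FPKM with shEGR1#8 and 20.3, 20.6 and 19.7 FPKM with shEGR1#9, against 19.9, 19.4 and 20.0 FPKM in control.

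Among regulators, PSME1 and PSME2 form the PA28 cap that interferon induces and that favours peptides for MHC class I. PSME2 had 259, 299 and 285 FPKM with shEGR1#8 and 306, 295 and 271 FPKM with shEGR1#9, against 303, 324 and 325 FPKM in control (log2 −0.15, limma adjusted p = 0.163). PSME1 had 198, 252 and 229 FPKM with shEGR1#8 and 249, 241 and 201 FPKM with shEGR1#9, against 255, 267 and 248 FPKM in control (log2 −0.17, limma adjusted p = 0.261). Hairpin and control libraries overlapped in both. The interferon-stimulated gene IFIT1, chosen with its values known, averaged 7.97 ± 1.41 and 9.81 ± 0.484 FPKM against 2.42 ± 0.195 FPKM in control (log2 1.52, SE 0.0927, limma adjusted p = 0.000121). PSMF1, the inhibitor PI31, had the highest log2 difference of the members, 0.18 (limma adjusted p = 0.182), at 38.4 ± 4.31 and 38.0 ± 2.70 FPKM against 33.6 ± 1.61 FPKM in control.

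All 4 assembly chaperones were below 0, where 44.2% of all genes were, with a median of −0.19, and 0 of 4 passed. PSMG1 pairs with PSMG2 to seed the alpha ring. It had 76.0, 70.1 and 59.9 FPKM with shEGR1#8 and 68.2, 70.0 and 69.5 FPKM with shEGR1#9, against 78.4, 82.1 and 83.7 FPKM in control, with no overlap. Its log2 difference was −0.24 (SE 0.0712, limma adjusted p = 0.0734), the lowest adjusted p of the 45 members. PSMG1 passed under 4 of 16 alternative settings: median-ratio scaling (0.0491), array weights (0.0112), and without shEGR1#8 replicate 1 (0.0280) or replicate 3 (0.0266). Calls over all genes in those 4 settings came to 904, 1914, 1069 and 1318, against 908 in the main setting. The limma adjusted p of PSMG1 ranged from 0.0112 to 0.258 over the main and alternative settings. PSMG4, at 5.85 ± 1.41 and 5.75 ± 0.331 FPKM against 7.06 ± 0.957 FPKM in control, had the lowest log2 difference of all members (−0.25, limma adjusted p = 0.238). PSMG2 and PSMG3 had −0.08 and −0.13.

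**Figure D3:**
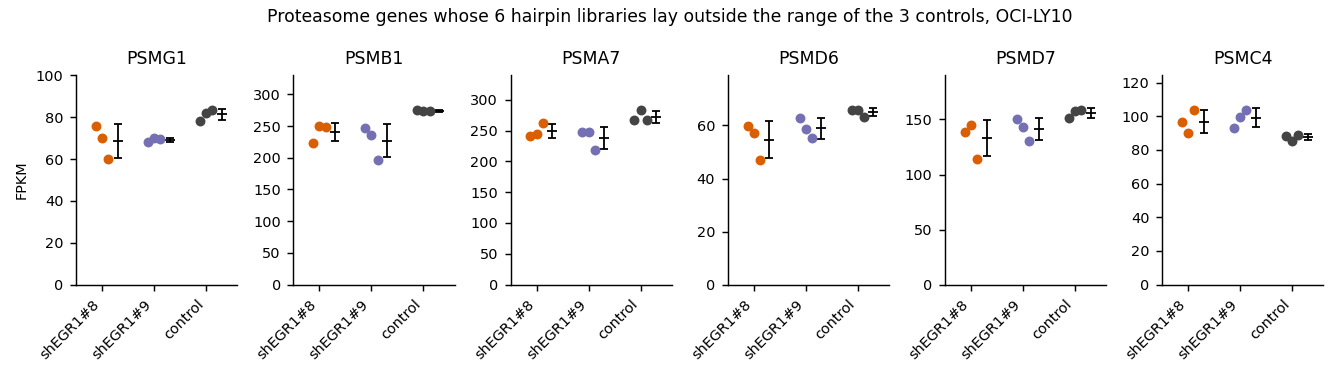
Points are FPKM of single OCI-LY10 libraries (3 per hairpin), with bars for mean ± SD, for the 6 members whose hairpin libraries all lay on one side of control. PSMG1 has 59.9 to 76.0 FPKM in the 6 hairpin libraries and 78.4 to 83.7 FPKM in control, and PSMC4 alone lies higher with the hairpins. None of the 6 passed at an adjusted p under 0.05. Over all genes, 12.9% had all 6 hairpin libraries above the controls and 8.22% had them below.

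A list of 28 further proteasome and ubiquitin genes gave the same count. All 28 were tested and 0 passed in limma, where 8.56% of all genes did. At an unadjusted p under 0.05 there were 8, against 26.1% of all genes, and 5 of them were lower, against 9.28%. The list's median was 0.03, as over all genes. POMP, which matures the beta ring, averaged 73.1 ± 19.6 and 79.7 ± 11.0 FPKM against 97.8 ± 8.04 FPKM in control (log2 −0.37, limma adjusted p = 0.174). RPS27A, a ubiquitin precursor fused to a ribosomal protein, averaged 823 ± 116 and 844 ± 151 FPKM against 1080 ± 60.9 FPKM in control (log2 −0.38, limma adjusted p = 0.0916). UBQLN4, a shuttle that carries substrates to the proteasome, averaged 28.5 ± 3.32 and 28.7 ± 2.22 FPKM against 23.7 ± 0.875 FPKM in control (log2 0.26, limma adjusted p = 0.0725). NFE2L1, the factor that raises proteasome genes when the enzyme is inhibited, averaged 57.2 ± 4.64 and 57.1 ± 1.43 FPKM against 55.4 ± 2.07 FPKM in control (log2 0.04, limma adjusted p = 0.681). The ubiquitin receptor ADRM1 and SEM1, listed under its older symbol SHFM1, differed by 0.20 and −0.20 (limma adjusted p 0.313 and 0.185). RPS27A and UBQLN4 were named for their adjusted p after their values were seen.

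In sum the members took 1.18 to 1.21% of all FPKM with shEGR1#8 and 1.15 to 1.22% with shEGR1#9, against 1.19 to 1.23% in control of OCI-LY10. These ranges overlapped. The ratio of PSMB10 to PSMB7 was 0.428 to 0.591 with shEGR1#8 and 0.440 to 0.558 with shEGR1#9, against 0.398 to 0.571 in control.

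TMD8 gave larger differences, without replicates and therefore without a test. After median-ratio scaling of the 3 libraries, 24 of 47 members were lower than control by more than 0.3 log2 units with both hairpins, where 21.8% of 11807 genes were, and 2 were higher, where 19.7% were. Among genes averaging at least 20 FPKM the members gave 21 of 40 lower (52.5%) against 31.7% of all such genes, and 1 higher against 12.1%. The members' median log2 difference was −0.38, against 0.04 over all genes and −0.16 over those at 20 FPKM or more. The libraries also differed in composition: small nuclear, small nucleolar and other short RNA genes held 60.5 and 55.5% of all FPKM in the shEGR1#8 and shEGR1#9 libraries and 36.3% in control, against 0.470 to 0.612% in OCI-LY10, and the part of this in the result was not tested. Without those short RNA genes the members took 0.773 and 0.766% of FPKM with the hairpins and 0.923% in control.

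The TMD8 differences varied by role. All 7 alpha subunits were lower by more than 0.3 log2 units with both hairpins. The share was 21.8% over all genes and 31.7% over those averaging at least 20 FPKM. The mean log2 differences of the alpha subunits ran from −0.71 (PSMA7) to −1.25 (PSMA3), with a median of −0.93. PSMA3 had 120 FPKM with shEGR1#8 and 97.6 FPKM with shEGR1#9, against 273 FPKM in control. PSMA2 had 78.0 and 75.3 FPKM against 182 FPKM in control. The constitutive catalytic subunits had a median of −0.26, and only PSMB7 of the 3 was past 0.3 with both hairpins, at 57.9 and 61.1 FPKM against 87.2 FPKM in control. Of the other beta subunits PSMB1 (75.4 and 74.0 FPKM against 140 FPKM in control), PSMB2 and PSMB3 were lower, while PSMB4 had 199 and 238 FPKM against 234 FPKM in control. PSMB10 had 105 and 119 FPKM against 125 FPKM in control.

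Within the 19S cap the ATPases split. PSMC2 had 30.2 and 31.8 FPKM against 76.7 FPKM in control (log2 −1.20 and −1.21), and PSMC6 had 39.1 and 28.6 FPKM against 78.9 FPKM in control (log2 −0.88 and −1.40). The ATPases PSMC1, PSMC3, PSMC4 and PSMC5 stayed within 0.3 log2 units of control in both libraries. Of 14 non-ATPase members 6 were lower, where 21.8% of all genes and 31.7% of those averaging at least 20 FPKM were. They were PSMD10 (gankyrin, 12.8 and 13.2 FPKM against 29.5 FPKM in control), PSMD6, PSMD7, PSMD14, PSMD5 and PSMD12. PSMD6 and PSMD7, below every control in OCI-LY10, had mean log2 differences of −0.92 and −0.85 here. The scaffold PSMD2 had 124 and 147 FPKM against 152 FPKM in control.

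Both PA28 subunits were lower in TMD8, PSME1 at 184 and 202 FPKM against 264 FPKM in control and PSME2 at 268 and 276 FPKM against 409 FPKM in control. PSME4 went the other way, at 26.4 and 24.0 FPKM against 17.8 FPKM in control (log2 0.66 and 0.44). Of the chaperones PSMG1 had 36.9 and 53.2 FPKM against 80.2 FPKM in control, PSMG2 had 47.0 and 52.1 FPKM against 90.0 FPKM in control, and PSMG4 had 14.7 and 18.6 FPKM against 27.2 FPKM in control. POMP had 44.5 and 55.7 FPKM against 102 FPKM in control. PSMD6-AS2, a low transcript, was the other member past 0.3 upward, at 2.65 and 0.638 FPKM against 0.310 FPKM in control.

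**Figure D4:**
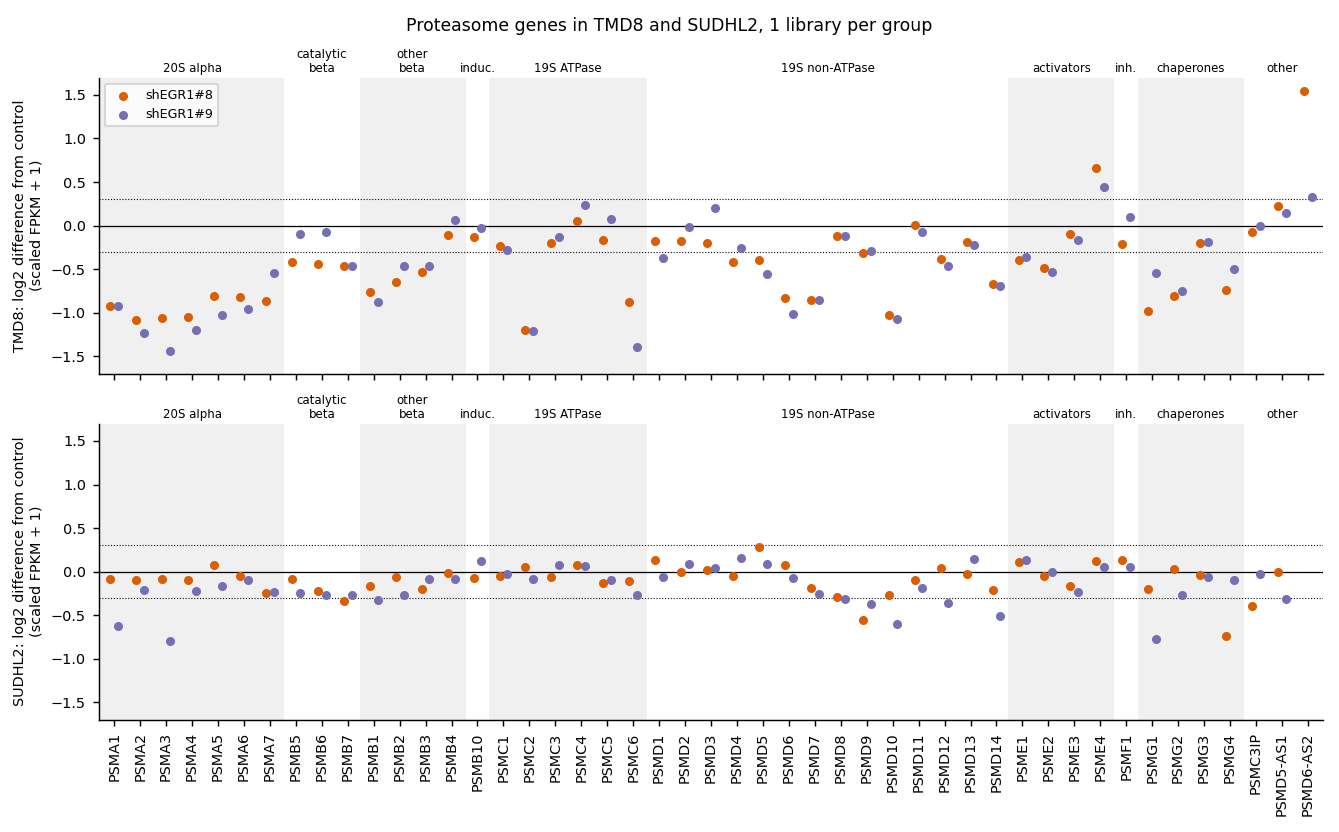
Points are log2 differences of scaled log2(FPKM + 1) between 1 hairpin library and the 1 control library in TMD8 (top) and SUDHL2 (bottom), by role, with dotted lines at 0.3 log2 units either side of 0. In TMD8 the 7 alpha subunits lie between −0.55 and −1.44, while in SUDHL2 most genes lie within the dotted lines and PSMA1, PSMA3 and PSMG1 are among those low for shEGR1#9 alone.

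In SUDHL2 the same measure gave 1 of 46 members lower with both hairpins, where 8.72% of 11631 genes were, and 0 higher, where 11.1% were. Among genes averaging at least 20 FPKM 0 of 40 members were past the mark either way, where 10.9% of such genes were lower and 7.56% higher. The 1 gene was PSMD9, at 14.5 and 16.7 FPKM against 21.7 FPKM in control. In TMD8 its log2 differences were −0.32 and −0.29, just across and just short of the 0.3 mark. The members' median was −0.15, against −0.00 over all genes, and −0.12 against −0.06 among genes averaging at least 20 FPKM. With the shEGR1#8 library alone 4 members were lower by more than 0.3, where 14.3% of all genes were, and with the shEGR1#9 library alone 10 of 46, where 21.9% were. The 2 hairpin libraries differed from each other for several genes that were also low in TMD8. PSMA3 had 95.9 FPKM with shEGR1#8 and 58.2 FPKM with shEGR1#9, against 101 FPKM in control. PSMA1 had 101 and 68.3 FPKM against 106 FPKM in control, and PSMG1 had 55.8 and 36.8 FPKM against 63.5 FPKM in control. PSMG4 was low in the other hairpin, at 17.6 FPKM with shEGR1#8 and 27.8 FPKM with shEGR1#9, against 29.6 FPKM in control. Short RNA genes held 52.9 and 49.4% of FPKM with the hairpins and 53.8% in control.

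Of the 24 members that were lower with both hairpins in TMD8, some were also low in single libraries of the other lines and others were not. In OCI-LY10, shEGR1#8 replicate 3 held the lowest of 9 values for 15 of the 45 members and the highest for 7. No other library held the lowest value for as many members, and the comparison below is not given for the others. Set against the other 2 libraries of its own group, that library had its lowest differences for PSMC6 (−0.39), PSMD7 (−0.32), PSMG2 (−0.32), PSMD6 (−0.31) and PSMA1 (−0.30), and its highest for PSMD3 (0.40). The genes with the lowest mean differences in TMD8, PSMA3 (−1.25), PSMC2 (−1.21) and PSMA2 (−1.16), had −0.04, −0.14 and −0.06 in that library. Across the 45 genes this difference, which lies within 1 group, correlated with the TMD8 difference from control (Pearson r 0.55, Spearman rho 0.57), where over 9597 genes r was 0.29 and rho 0.41. The difference between the 2 SUDHL2 hairpin libraries correlated with the TMD8 difference at r 0.41 and rho 0.46, against r 0.16 and rho 0.29 over 9597 genes. The joint difference of OCI-LY10 correlated with that of TMD8 at r 0.47 and rho 0.53, against r 0.29 and rho 0.37. With the mean difference of SUDHL2 it correlated at r 0.23 and rho 0.25. That was below the r 0.29 and rho 0.45 found over 9597 genes. No library enters both sides of these comparisons. The points are genes, which share libraries and are not replicates. Level was not matched: in TMD8 40 of 47 members averaged at least 20 FPKM, against 3461 of 11807 genes. Correlations over genes of like level were not computed, so the part of level in these differences was not tested.

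**Figure D5:**
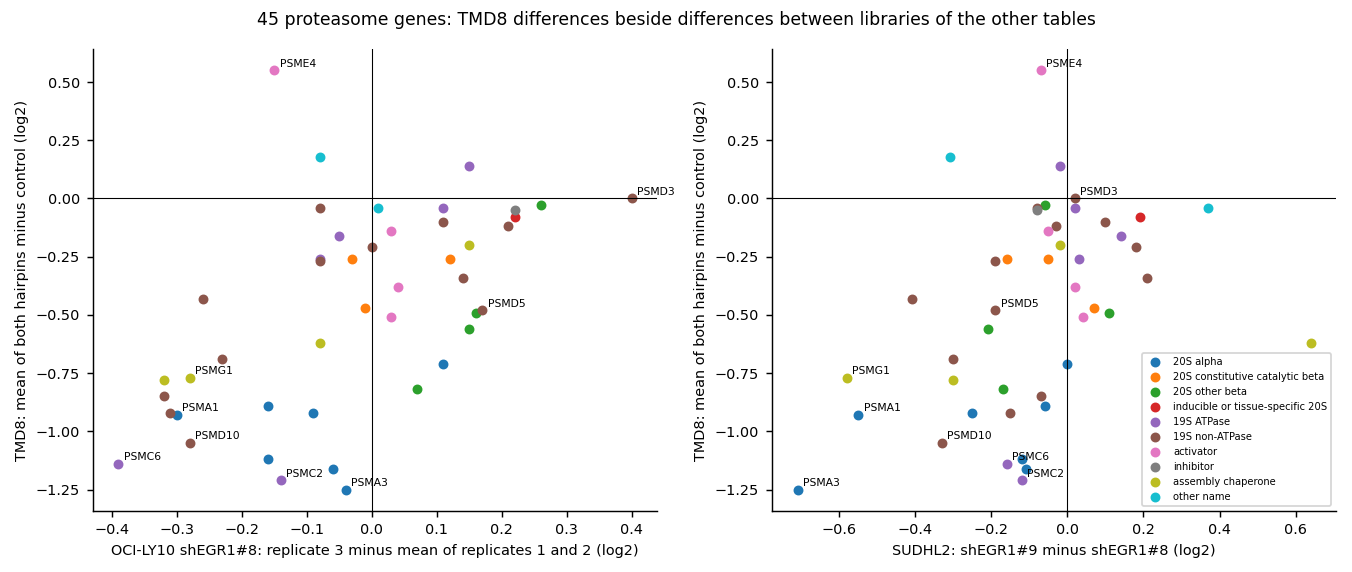
Each point is 1 of 45 genes, coloured by role. The vertical axes give the TMD8 mean log2 difference of both hairpins from control. The horizontal axes give the log2 difference of OCI-LY10 shEGR1#8 replicate 3 from replicates 1 and 2 (left) and of the SUDHL2 shEGR1#9 library from the shEGR1#8 library (right). Points tend to run from low left to high right in both panels, with PSMC6 farthest left in the left panel, PSMA3 farthest left in the right panel and PSME4 above the others.

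Between lines, control levels of the 45 genes kept a similar order, with r 0.86 between OCI-LY10 and TMD8, 0.83 between OCI-LY10 and SUDHL2 and 0.92 between TMD8 and SUDHL2, across genes. The tables were made separately and OCI-LY10 lacks the short RNA that fills the others, so FPKM given for several lines are not directly comparable. A ratio of 2 genes is used here instead. PSMB10 over PSMB7, the immunoproteasome subunit over the one it replaces, was 1.81 and 1.95 in the hairpin libraries and 1.43 in control of TMD8, and 2.65 and 2.86 in the hairpin libraries and 2.18 in control of SUDHL2. In all 9 OCI-LY10 libraries the ratio stayed below 0.6. The line and the table cannot be told apart as sources of this difference.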

How the data were processed

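RNA libraries made with a TruSeq kit were analysed: 9 of OCI-LY10, 3 of TMD8 and 3 of SUDHL2. The other 4 of the 19 samples, from chromatin immunoprecipitation and its input, are not analysed here. The authors' deposited values were read as FPKM; the unit is not named, and the values are not whole and have no fixed sum. Bowtie2, HISAT, StringTie and hg19 are named in the submitters' processing notes, without versions or roles. Lines with a repeated name (4, 8 and 10 in OCI-LY10, TMD8 and SUDHL2) were left out, as were 1 line of TMD8 with no number and 430 lines that follow the end of the SUDHL2 table and copy the end of the TMD8 table; 24 names had been turned into dates.

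In OCI-LY10, 10612 genes with at least 1 FPKM in at least 3 of 9 libraries were fitted on log2(FPKM + 1) with limma 3.58.1 (R 4.3.3), with a mean-variance trend, all 9 libraries in 1 fit and Benjamini-Hochberg adjustment over all genes, called at 0.05. A fold change on this scale understates the change of low genes. TMD8 and SUDHL2, with 1 library per group, were scaled by median ratios and compared without a test. Tables were read with Python 3.11.15, and the steps were tested on simulated data. Alternatives were another pseudocount, filter or scaling, array weights, a replicate block, and leaving out each library. Replicate numbers paired the shEGR1#9 with the shEGR1#8 libraries by the data alone (deviations correlated at 0.134 to 0.26 in all 3 pairs); with the block that comparison also called 0 members and 0 genes. Named genes were those with the highest level or largest difference in each role, those past the fold in TMD8 or SUDHL2, untested members and 4 pathway genes; other genes were named after their values were seen. The members and lists were chosen with earlier results of these data known.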

Additional observations from a re-analysis of the deposited data

How the results depend on the processing

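No depth is known for any table. The median SE of a member in OCI-LY10 was 0.0722 log2 units, which is not a detection limit. Larger differences also went uncalled in the main setting, such as −0.24 for PSMG1 and −0.25 for PSMG4 (limma adjusted p 0.0734 and 0.238). For members called with both hairpins (0), median-ratio scaling gave 1 and array weights 2, and leaving out 1 library gave 0 to 2. For shEGR1#8 (0) leaving out 1 library gave 0 to 2. For shEGR1#9 (0) array weights gave 3, a fit of only the 2 groups compared gave 1, and leaving out 1 library gave 0 to 1. The genes concerned were PSMG1, PSMB1, PSMC4 and PSMA5, with the direction they had before. Between the hairpins every setting run gave 0. With both hairpins, calls over all genes (908) came to 904 with median-ratio scaling and 1914 with array weights. Without 1 library they came to 281 to 1318, with the lowest counts without a control library (281 to 313). For each hairpin alone, the share of all genes called is given for the main setting only (5.33% for shEGR1#8 and 5.09% for shEGR1#9). The member counts of the other settings therefore have no such share beside them.

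Replicate numbers are shared by the OCI-LY10 groups but did not pair hairpin with control libraries: same-number correlations ran from −0.188 to 0.060 there, and the 3 of 9 that were over 0.1 were those between the hairpins (0.134 to 0.26). A fit with a replicate block called 0 members and 775 genes in all, and 0 members between the hairpins. EGR1 was highest in replicate 3 of every group; with the block its difference kept its size (0.42) with an SE of 0.102 in place of 0.267 and an adjusted p of 0.054 in place of 0.349 (limma).

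In TMD8 the members' median (−0.38) was −0.45 with FPKM as deposited, −0.43 at 5 FPKM or more and −0.42 with the shEGR1#8 library alone. In SUDHL2 the median (−0.15) was −0.06 with the shEGR1#8 library alone, and members past 0.3 (1) came to 4 with that library alone, against 14.3% of all genes, and 10 with the shEGR1#9 library alone, against 21.9%. Of 129 values of single named genes in TMD8 under the alternatives, 17 moved by more than the gene's replicate SD in OCI-LY10 (the members' median SD for genes untested there), among them PSMD6-AS2, PSMA3, PSMC6, PSMG1 and PSME4, and none changed direction.

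Some uncalled values changed sign, most of them near 0; PSMB9 (0.42) reached −0.00 without control replicate 2, and PSMD5 (−0.15) reached 0.00 without shEGR1#8 replicate 2. PSMD5-AS1 had −0.01 with quantile normalization, PSMA3 −0.02 with median-ratio scaling, PSMD14 −0.02 and −0.00 with those scalings, and PSMB3, PSMC6 and PSMD12 −0.00, 0.01 and 0.03 with array weights. Without 1 library the ranges were −0.03 to 0.04 (PSMA3), −0.02 to 0.18 (PSMB10), −0.00 to 0.09 (PSMB3), −0.06 to −0.00 (PSMB7), −0.00 to 0.70 (PSMB9), −0.00 to 0.06 (PSMC2), −0.07 to 0.05 (PSMC6), −0.07 to 0.02 (PSMD10), −0.04 to 0.04 (PSMD12), −0.04 to 0.05 (PSMD14), −0.02 to 0.02 (PSMD2), −0.27 to 0.00 (PSMD5) and −0.06 to 0.14 (PSMD5-AS1). The cause was not tested.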

Other observations

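In TMD8, without replicates, 11 of the 28 pathway genes were lower by more than 0.3 log2 units with both hairpins, where 21.8% of all genes and 31.7% of those averaging at least 20 FPKM were. Higher were 2, where 19.7% and 12.1% were. NGLY1, the glycanase that activates NFE2L1, had 23.0 FPKM with shEGR1#8 and 21.0 FPKM with shEGR1#9, against 50.6 FPKM in control. DDI2, the protease that cleaves NFE2L1, had 15.0 and 13.1 FPKM against 6.31 FPKM in control. Both genes were chosen after their values were seen.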
